A study of Mus musculus with 6 samples.

Results

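Antisense genes are transcribed from the DNA strand opposite another gene. The 120 antisense genes described here were selected on their counts: each was annotated as antisense in the deposited table and had 300 or more read counts summed over the 6 libraries. They were 120 of 2826 antisense genes, of which 1428 had at least 1 count, in a table of 54532 genes. They held 71.7% of the counts on antisense genes and 0.137% of the counts on all genes. Each was set beside its partner, the protein-coding gene on the other strand that shared the longest stretch with it. Because the members were chosen by count, their levels are given as a description.

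Antisense transcripts can overlap the 5′ ends of their partners (head to head), the 3′ ends (tail to tail), or lie within or around the partner. Some are known to act in cis, as Kcnq1ot1 does in imprinting, but most have no known function, and many are unstable nuclear RNAs. An antisense and a sense gene also share DNA, so a read from one strand can be given to the other gene if the strand of the read is not used in counting.

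The libraries came from leukemia cells of C57BL/6 mice carrying AE9a (AML1-ETO9a), a short splice form of the t(8;21) fusion protein of acute myeloid leukemia. In this model c-Kit+ stem and progenitor cells were transduced with an AE9a retrovirus and given to lethally irradiated C57BL/6 females, and cells of the third generation of transplanted mice were sequenced. The CBM group (central bone marrow, 3 libraries) was flushed from femurs and tibias, and the EBM group (endosteal bone marrow, 3 libraries) was released from those bones by collagenase I at 37 °C. All 6 libraries therefore carried AE9a and there was no group without leukemia. Only EBM cells were digested, so region and digestion cannot be told apart, and in bulk samples fewer cells of a type cannot be told apart from less RNA per cell. Nothing in the labels says whether the libraries of a group came from separate mice, so p-values measure the spread between these libraries.

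Library totals were 16436526 to 19462964 counts on genes, and 3 counts corresponded to 0.149 to 0.193 CPM (counts scaled to the effective library size), which covers counting error only. The leukemia marker genes (Ptprc, Kit, Cd34, Myb, Mpo, Runx1, Spi1 and Cebpa) summed to 951 to 1380 CPM in CBM and 1030 to 1250 CPM in EBM. The list was uneven: over the 6 libraries Ptprc stayed at or below 3.58 CPM and Cebpa at or below 0.684 CPM. Cd34 ran from 1.16 to 16.4 CPM and Mpo from 1.65 to 35.8 CPM, so Kit, Myb, Runx1 and Spi1 made up most of the sum. The 8 osteoblast and stroma markers summed to at most 1.26 CPM in CBM and 1.39 CPM in EBM, with Sp7 and Alpl at 0 throughout. Of the other lists, erythroid markers summed to 2130 to 7110 CPM in CBM and 2650 to 5190 CPM in EBM, and neutrophil markers to 2.28 to 167 CPM and 25.9 to 111 CPM. Endothelial, B cell, T cell, macrophage and megakaryocyte lists each stayed at or below 27.8 CPM, with Emcn and Ms4a1 at 0. Of the 45 markers listed, 22 passed the filter on low counts, none of them from the stroma or T cell lists, and none of the 22 had an unadjusted p under 0.05 between the regions in edgeR's quasi-likelihood test. EBM library 3 stood apart among the antisense genes: their mean log2 CPM, centred on each gene, was -0.234 there and -0.029 to 0.136 in the other 5 libraries.

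Of the 120 genes, 47 lay inside the partner, 33 were head to head with it, 26 tail to tail and 8 contained it, while 6 overlapped no protein-coding gene on the other strand. Il1bos and Il1b, the gene of the cytokine interleukin 1 beta, are a head-to-head pair on chromosome 2 whose values are the base of several results. In the GENCODE M21 annotation (GRCm38) their exons shared 25 bases at chr2:129369897-129369921, shown because they are the only place where exons of both genes lie over the same DNA. All 25 bases are capitals, and no UTR or coding sequence was annotated there for either gene.
Il1bos, plus strand: AGTCTAGAAGCAGATTCTGGGCCAG
Il1b, minus strand: CTGGCCCAGAATCTGCTTCTAGACT

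The 250 bases before the start are shown for this pair and for A830035O19Rik and Rbm3os, head-to-head genes with values of opposite direction below. Starts and sequences are from RefSeq (GRCm38.p6), and the sequences are written 5′ to 3′ along the strand of the gene. Capitals mark any match, on either strand, to the AP-1 type motif TGANTCA. They also mark matches to the TATA box motif TATAAA. The E-box motif searched was CACGTG, on either strand. No match overlapped another.
Il1b, chr2:129371140-129371389, minus strand: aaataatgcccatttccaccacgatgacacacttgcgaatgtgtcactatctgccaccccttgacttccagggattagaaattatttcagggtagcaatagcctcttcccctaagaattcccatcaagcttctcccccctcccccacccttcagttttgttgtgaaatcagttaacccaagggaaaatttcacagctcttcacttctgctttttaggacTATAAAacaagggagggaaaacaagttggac
Il1bos, chr2:129369652-129369901, plus strand: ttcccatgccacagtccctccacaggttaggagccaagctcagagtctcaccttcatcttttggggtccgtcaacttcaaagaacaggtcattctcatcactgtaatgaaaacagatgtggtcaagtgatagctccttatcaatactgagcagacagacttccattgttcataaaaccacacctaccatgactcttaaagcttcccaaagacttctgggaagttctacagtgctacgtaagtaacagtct
A830035O19Rik, chr9:45953736-45953985, plus strand: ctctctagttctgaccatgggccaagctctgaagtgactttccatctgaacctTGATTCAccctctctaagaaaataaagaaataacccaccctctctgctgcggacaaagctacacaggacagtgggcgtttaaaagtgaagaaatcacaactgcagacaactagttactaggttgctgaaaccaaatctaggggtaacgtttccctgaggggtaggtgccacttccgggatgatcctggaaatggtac
Rbm3os, chrX:8145177-8145426, plus strand: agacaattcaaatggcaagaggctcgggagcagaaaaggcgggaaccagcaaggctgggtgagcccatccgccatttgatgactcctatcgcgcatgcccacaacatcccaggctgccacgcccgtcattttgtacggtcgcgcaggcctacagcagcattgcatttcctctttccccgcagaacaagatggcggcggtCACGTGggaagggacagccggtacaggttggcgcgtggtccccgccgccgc

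Il1b had TATAAA at -31 to -26 from its start, and none of the 3 motifs was in the Il1bos window. A830035O19Rik had TGATTCA at -197 to -191, and Rbm3os had CACGTG at -51 to -46. RefSeq held windows for 59 of the 120 genes, 74 windows in all because a gene can have several starts. TGANTCA was in 5.4% of these windows and in 6.7% of all 32851 windows of the same length. TATAAA was in 5.4% and 12.4%, and CACGTG in 9.5% and 6.0%. The Il1b and Il1bos windows each lie within the other gene's span. The Il1bos window runs to base 129369901, past the start of Il1bos in the count table at 129369897. Its last bases are therefore the first of the 25 shared bases shown above. A match is a description of the letters only.

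Counts were concentrated in a few genes. Gm15915 alone held 32.9% of the 148936 counts on the 120 genes, the median gene had 484 counts, and 100 genes had under 1000. Just above the minimum were Gm12867 with 301 counts and 2810001G20Rik and Gm42067 with 302 each. Just below it were Gm26628 with 291, 6330562C20Rik with 296 and Sox6os with 297.

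Gm15915 (chr10:93674218-93683322, minus strand) lies inside Ntn4, which encodes the secreted laminin-related protein netrin 4, and shares no exonic base with it. The CBM libraries had 10423, 5273 and 7560 counts and the EBM libraries 11394, 10262 and 4097. The lowest library was an EBM library and so was the highest, and the groups overlapped. Per length, it was at 497 CPM per kilobase against 28.8 for Ntn4, that is 17.3 times its partner. The CBM mean was 415 ± 162 CPM (SD, n = 3) and the EBM mean 488 ± 197 CPM (SD, n = 3).

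Tug1 (chr11:3639785-3649673, minus strand), a widely expressed long noncoding RNA, is head to head with Morc2a, which encodes a chromatin-binding ATPase. The CBM libraries had 2031, 1866 and 2167 counts and the EBM libraries 1762, 1763 and 1103, and in CPM the groups did not overlap. The means were 107 ± 8.68 and 88.8 ± 15.5 CPM (SD, n = 3 each). The log2 fold change, EBM over CBM, was -0.27 (SE 0.15, edgeR adjusted p = 0.723). Per length Tug1 was at 10.1 and Morc2a at 15.4 CPM per kilobase, and the spans of the genes in the table overlapped by 180 bases.

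Kcnq1ot1 (chr7:143203458-143296549, minus strand) is the imprinted transcript inside the potassium channel gene Kcnq1 that silences neighbouring genes on the paternal chromosome. It is annotated as 1 exon of 93092 bases. It had 444, 342 and 470 counts in CBM and 377, 456 and 271 in EBM, with a log2 fold change of -0.07 (SE 0.19). Kcnq1 had only 9 to 29 counts per library. Per length, Kcnq1ot1 was at 0.233 and Kcnq1 at 0.24. Kcnq1ot1 was the only gene among the 120 from a list of 33 named genes and transcripts, not all of them antisense or of known regulatory function. Of that list 28 were in the table, 10 of them annotated as antisense, and 6 of these 10 had 0 counts in all libraries: Airn, Hoxaas3, Hoxb5os, Hotairm1, Rapgef4os1 and Foxo6os. Tsix, the antisense partner of the X-inactivation RNA Xist, had 6 counts in all 6 libraries together, Nespas had 286 and Pax6os1 had 39.

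The other genes among the 10 with most counts differed by at most 0.25 on the log2 scale between the regions. Brip1os, which contains Ints2, a subunit of the Integrator complex, averaged 75.2 ± 3.41 CPM (SD, n = 3) over CBM and 68.8 ± 6.43 CPM (SD, n = 3) over EBM. Rab10os, tail to tail with the small GTPase gene Rab10, had 51.8 ± 2.72 and 54.4 ± 1.22 CPM (SD, n = 3 each). 1700042O10Rik, inside the aromatic amino acid decarboxylase gene Ddc, had 26.8 to 45.5 CPM in CBM and 36.2 to 47.8 CPM in EBM. These ranges overlapped throughout. 1600020E01Rik, head to head with Pcbp1, which encodes a poly(C)-binding protein, had 20.3 to 22.5 and 18.4 to 26.3 CPM. Gm26740 lies inside Raet1e, a gene of an NKG2D ligand with 3 counts in all, and had 304 to 456 counts in CBM and 149 to 379 in EBM. 4930579G18Rik, inside the splicing gene Acin1, had 12.1 to 16.4 and 11.7 to 16.6 CPM.

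Most antisense genes were below their partner per length. Over the 111 pairs whose partner had counts, the median was 23.5% of the partner. In 25 pairs the antisense gene was the higher one, in 34 it was under 10% of the partner and in 2 under 1%, Gm19719 at 0.824% of Alox5ap and Gm10138 at 0.956% of Ivns1abp. The medians were 17.6% head to head, 22.2% inside the partner, 25.1% tail to tail and 38.3% where the partner lay inside. Partners ranged widely: 54 had 10000 or more counts and 12 had under 100.

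**Figure D1:**
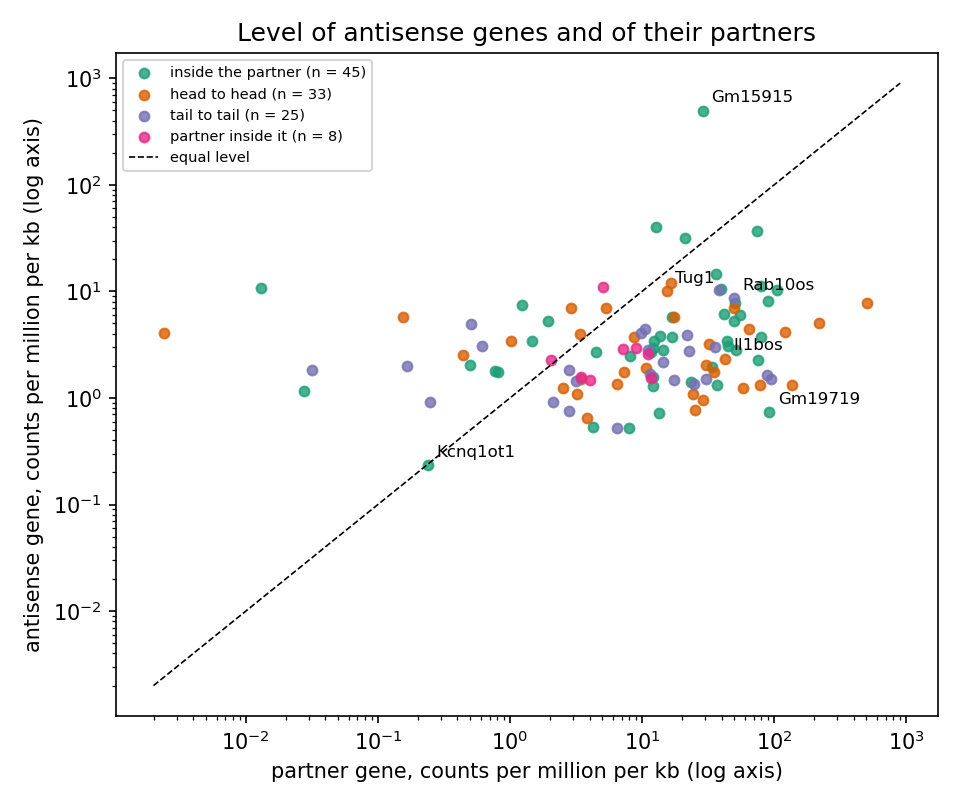
Level of each antisense gene (vertical axis) against that of its partner (horizontal axis), both in CPM per kilobase of gene length averaged over the 6 libraries, on log axes, 1 point per pair, coloured by position. The 3 pairs whose partner had 0 counts are left out, and most of the 111 points lie below the dashed line of equal level, with Gm15915 far above it. Some pairs whose partner had few counts lie further above it, such as Gm26873 (Lix1, 1 count) and Gm26740 (Raet1e, 3 counts).

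The exons of 95 genes shared bases with exons of the other strand and those of 25 shared none. The median share was 10.4% of a gene's exonic bases and the highest 67.1%, in 1110002L01Rik, the partner of the kinesin gene Kif3c. Whether the strand of a read was used in counting is not given in the sources used here, although the library kit was directional. Among all antisense genes whose partner had 5000 or more counts, the share with 0 counts was 8.6% (16 of 186) where no exonic base was shared and 4.09% (9 of 220) where up to 25% were. It was 3.09% (3 of 97) over 25 to 50%, 15.4% (10 of 65) over 50 to 95% and 88.9% (32 of 36) above 95%. The highest total of any gene in the last class was 33 counts, so none of the 120 was among them. The median exon lengths of the 5 classes were 696, 1500, 974, 727 and 516 bases. The part that the counting rule had in these values was not tested.

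**Figure D2:**
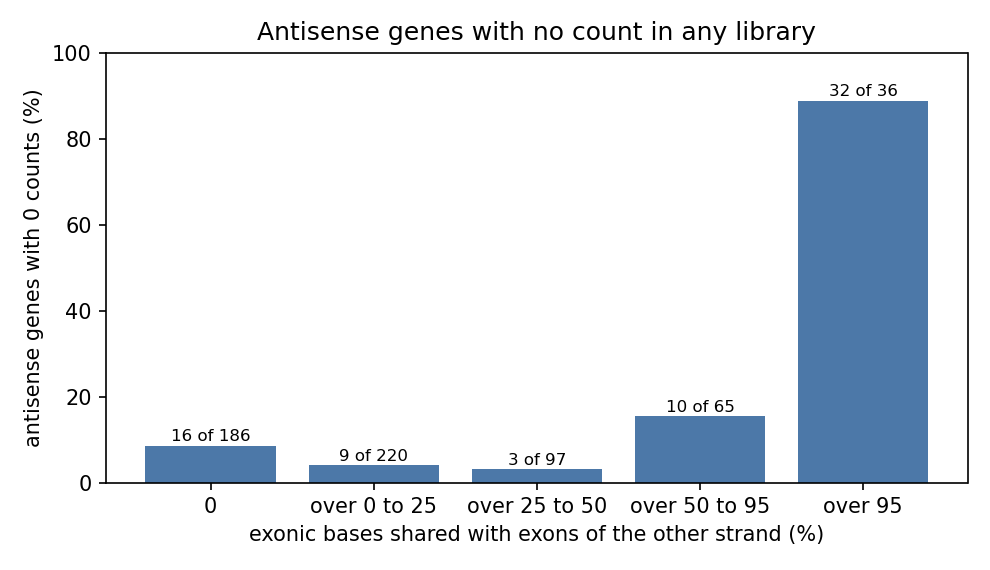
Percent of antisense genes with 0 counts in all 6 libraries (vertical axis, from 0) by the percent of their exonic bases that lie under exons of the other strand (horizontal axis), for genes whose partner had 5000 or more counts. The bars stay at 15.4% or below up to 95% shared and reach 88.9% above it.

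Neighbours on the same strand were counted as well. In 16 cases a protein-coding gene on the same strand ended within 5000 bases upstream of the antisense gene, and 6 antisense genes shared exonic bases with a gene on their own strand.

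The central question of the design was how cells from the endosteal region differ from those flushed out of the marrow. The largest log2 fold changes among the 120 genes, EBM over CBM, were in both directions. Values were higher in EBM for Il1bos (1.58), Gm15247 (1.31) and A830035O19Rik (1.07). They were lower in EBM for Gm19719 (-1.48) and Gm12867 (-1.47). Gm15247, A830035O19Rik, Gm19719 and Gm12867 had 323, 356, 345 and 301 summed counts, close to the minimum for membership. That minimum was set on both groups together, so counts of the higher group helped to bring these genes over it. The part of this selection in which genes had the largest changes was not tested. By edgeR's quasi-likelihood test, none of the 120 antisense genes had an adjusted p under 0.05, and the same held for all 13352 genes tested (percent called 0.0%). The smallest adjusted p was 0.189 among the 120 and 0.0583 over all genes. DESeq2 called 1 of the 120, Gm19719, while it called 1.39% of the 12619 genes it gave an adjusted p (175 genes).

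At an unadjusted p under 0.05, edgeR found 12 of the 120 (10.0%), and 1056 of all genes (7.91%). Of the 12, 4 were higher in EBM, or 3.33% against 4.01% of all genes, and 8 were lower, or 6.67% against 3.9%. The median log2 fold change of the 120 was -0.08, with 46 above and 74 below 0, and that of all genes was 0.002. Changes ran from -1.48 to 1.58, 95 of them within 0.5 of 0 and 5 of them 1 or more in size. Among genes with as many counts, 10.1% of 139 lincRNA genes and 8.05% of 9589 protein-coding genes had an unadjusted p under 0.05, with medians of -0.004 and 0.009. In CPM, 5 of the 120 (4.17%) had all EBM libraries above all CBM libraries, against 7.47% of all genes, and 17 (14.2%) had them all below, against 7.65%. Without EBM library 3 the median was -0.04 with 56 genes above and 64 below 0, and 7 were higher and 4 lower at that p (9.17% of the 120, against 8.22% of all genes). Without EBM library 1, 3 were higher and 2 lower (4.17%, against 5.19% of all genes). Without CBM library 2, 6 were higher and 2 lower (6.67%, against 7.44%), and without EBM library 2, 2 were higher and 12 lower (11.7%, against 6.94%).

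**Figure D3:**
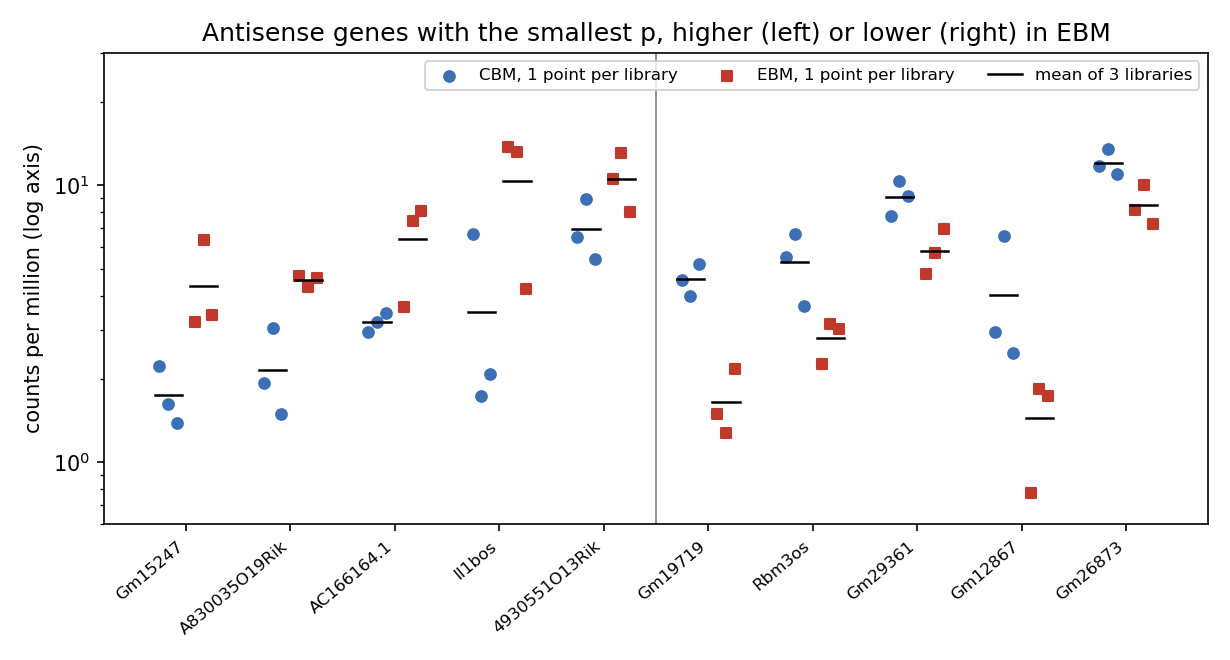
CPM (vertical log axis) of the 5 antisense genes with the smallest p that were higher in EBM and the 5 that were lower (horizontal axis), 1 point per library and a line at the mean of the 3 libraries of a group. The CBM and EBM points overlap for Il1bos and 4930551O13Rik and are apart for the other 8, none of which passed an adjusted p of 0.05 in edgeR.

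Among the genes with higher values in EBM, Gm15247 (chrX:169985801-169986939, minus strand) lies inside Mid1, which encodes a microtubule-binding ubiquitin ligase. It had 39, 31 and 28 counts in CBM and 58, 114 and 53 in EBM, and the groups did not overlap. The means were 1.75 ± 0.427 and 4.32 ± 1.76 CPM (SD, n = 3 each) and the log2 fold change was 1.31 (SE 0.35, edgeR adjusted p = 0.404). Mid1 itself had 121, 118 and 68 counts against 172, 238 and 160 and its log2 fold change was 1.0 (edgeR adjusted p = 0.44). Gm15247 was at 6.14 times Mid1 per length, and 27.3% of its exonic bases lay under exons of the other strand.

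A830035O19Rik (chr9:45954101-45955998, plus strand) is head to head with Sidt2, which encodes a lysosomal membrane protein. It had 34, 58 and 30 counts in CBM and 85, 77 and 72 in EBM, without overlap, or 2.16 ± 0.806 and 4.53 ± 0.218 CPM (SD, n = 3 each). Its log2 fold change was 1.07 (SE 0.3, edgeR adjusted p = 0.414). Sidt2 also had no overlap, with 158 ± 15.0 and 204 ± 4.1 CPM (SD, n = 3 each) and a log2 fold change of 0.37. The antisense gene was at 4.96% of Sidt2 per length and shared 28.19% of its exonic bases with the other strand. Its RefSeq promoter window, shown above, ends before the start given in the table.

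AC166164.1 (chr17:48417280-48421634, plus strand) is tail to tail with Apobec2, a member of the AID/APOBEC deaminase family, and shares no exonic base with it. It had 52, 61 and 70 counts in CBM and 66, 133 and 126 in EBM. The EBM values were all higher in CPM, with EBM library 1 close to CBM, and the log2 fold change was 0.99 (SE 0.32, edgeR adjusted p = 0.516). Apobec2 had 841, 787 and 963 against 1305, 1596 and 1091 counts and its log2 fold change was 0.75, with adjusted p = 0.175 in edgeR and 0.000615 in DESeq2. The same-strand gene Oard1 ends 14 bases upstream of AC166164.1 and had 37.8 CPM in each region.

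Il1bos (chr2:129369897-129375748, plus strand) had 117, 33 and 42 counts in CBM and 248, 237 and 66 in EBM. EBM libraries 1 and 2 were highest, but EBM library 3 was below CBM library 1 (4.24 and 6.66 CPM), so the groups overlapped. The log2 fold change was 1.58 (SE 0.64, edgeR adjusted p = 0.613), and leaving out 1 library at a time moved it from 1.26 to 2.44. The exact permutation test gave p = 0.2, where 0.1 is the smallest possible with 3 against 3. Il1b had 580, 95 and 169 counts in CBM and 3770, 3048 and 993 in EBM, without overlap. Its means were 15.5 ± 15.3 and 147 ± 74.7 CPM (SD, n = 3 each) and its log2 fold change was 3.26 (SE 0.79), with adjusted p = 0.331 in edgeR and 0.0351 in DESeq2. Neutrophil markers summed to 6.15, 167 and 2.28 CPM in CBM libraries 1 to 3 and to 36.3, 111 and 25.9 CPM in EBM libraries 1 to 3. Macrophage markers summed to 1.08, 2.74 and 1.34 CPM and to 1.93, 3.28 and 1.35 CPM. CBM library 2 had the highest neutrophil sum and the lowest Il1b and Il1bos, while all EBM libraries had higher neutrophil sums than CBM libraries 1 and 3. The part of other cell types in these values was not tested.

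The fifth gene with higher values, 4930551O13Rik, lies inside Optn, the gene of the autophagy receptor optineurin. It had 114, 169 and 109 counts in CBM and 190, 236 and 125 in EBM, and the groups overlapped (log2 fold change 0.61, SE 0.26, edgeR adjusted p = 0.643).

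Among the genes with lower values in EBM, Gm19719 (chr5:149282752-149287868, minus strand) had the smallest p. It lies inside Alox5ap, which encodes the 5-lipoxygenase activating protein of leukotriene synthesis. It had 80, 76 and 105 counts in CBM and 27, 23 and 34 in EBM, and the groups were well apart. The means were 4.59 ± 0.605 and 1.65 ± 0.473 CPM (SD, n = 3 each) and the log2 fold change was -1.48 (SE 0.27), with adjusted p = 0.189 in edgeR and 0.00313 in DESeq2. Alox5ap had 2130, 2243 and 2578 counts in CBM and 2307, 2058 and 2731 in EBM, with overlap and a log2 fold change of 0.18. The exons of Gm19719 shared 189 bases (4.47%) with the other strand.

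Rbm3os (chrX:8145429-8147964, plus strand) is head to head with Rbm3, the gene of a cold-inducible RNA-binding protein. It had 97, 127 and 74 counts in CBM and 41, 57 and 47 in EBM, without overlap, and a log2 fold change of -0.91 (SE 0.28, edgeR adjusted p = 0.484). Rbm3 had 551 ± 24.2 and 582 ± 30.1 CPM (SD, n = 3 each), differed by 0.08 on the log2 scale, and its libraries overlapped.

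Gm29361 (chr12:83631834-83633833, minus strand) lies inside the splicing regulator gene Rbm25. It had 136, 198 and 185 counts in CBM and 87, 102 and 108 in EBM, with a log2 fold change of -0.65 (SE 0.21, edgeR adjusted p = 0.507). Rbm25 differed by -0.04. Gm12867 (chr4:119130292-119131001, minus strand), inside the glucose transporter gene Slc2a1 and sharing no exonic base, had 52, 125 and 50 counts against 14, 33 and 27. Its log2 fold change was -1.47 (SE 0.5, edgeR adjusted p = 0.54), ran from -1.72 to -0.91 without 1 library at a time, and rested on few counts. Gm26873 (chr17:17389943-17411993, minus strand), whose partner Lix1 had 1 count, had 205, 257 and 222 counts against 147, 180 and 113 (log2 fold change -0.51, SE 0.18, edgeR adjusted p = 0.552). In CPM the groups did not overlap for any of these 3 genes.

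Partners were tested in the same fit. Of 103 partners tested, none passed an adjusted p of 0.05 in edgeR and 9 (8.74%) had an unadjusted p under 0.05, against 7.91% of all genes. Il1b, Apobec2, Sidt2, H2-Q4, Mid1 and Kdm6b were higher in EBM, and Ints2, Keap1 and Rcor3 lower. Both genes of a pair were at that p in 4 pairs: Il1bos and Il1b, A830035O19Rik and Sidt2, AC166164.1 and Apobec2, and Gm15247 and Mid1, all 4 higher in EBM. That is 3.85% of the 104 member pairs, against 0.968% of all 2066 opposite-strand pairs (20 pairs), a description with no test of the difference.

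Across the 104 pairs in which both genes were tested, antisense and partner had the same sign of change in 65. That count was not made over all opposite-strand pairs. Of the 120 antisense genes, 95 had a log2 fold change within 0.5 of 0, where the sign says little. Pearson's r between the log2 fold changes was 0.55 over the 104 pairs (0.47 over 103 pairs without Il1bos) and 0.22 over all 2066 opposite-strand pairs of the table. It was 0.67 over the 18 pairs in which the antisense gene shared no exonic base with the other strand and 0.55 over the other 86. Some of the 18 lie inside their partner, such as 1700058P15Rik inside Vasp, so this split does not separate reads from the partner's introns. The part of such reads was not tested. By position r was 0.65 head to head, 0.55 tail to tail, 0.5 inside the partner and 0.41 in the 8 pairs with the partner inside. The head-to-head value includes Il1bos and Il1b and was not recomputed without that pair, so the positions are not ranked by it. The deviations of each library from its group mean correlated with r between 0.25 and 0.75 across the member pairs and between 0.13 and 0.34 across all pairs. These correlations are across pairs measured in the same libraries, pairs are not independent replicates, and pairs of the whole table had other count levels.

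**Figure D4:**
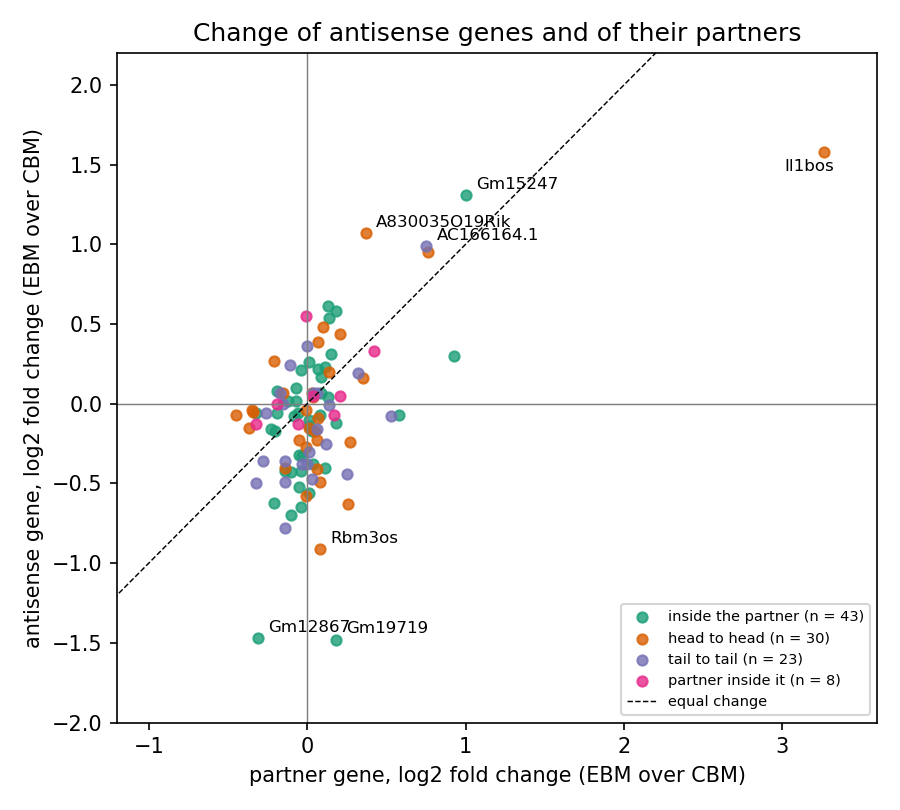
Log2 fold change, EBM over CBM, of each antisense gene (vertical axis) against that of its partner (horizontal axis) for the 104 pairs in which both were tested, coloured by position, with the dashed line of equal change. Il1bos lies at 1.58 against 3.26 for Il1b, and Gm19719 and Rbm3os lie below 0 with partners near 0.

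How closely a pair moved over the 6 libraries was described by the SD of log2 CPM of the antisense gene and the SD of the log2 ratio of antisense to partner CPM. The ratio varied less than the antisense gene in 53 pairs and more in 46, and both SDs had a median of 0.34. In 8 pairs the SD of the ratio was under 0.5 of that of the antisense gene. The 3 closest pairs are named after their values were seen, although Gm47827 was also among the 10 genes with most counts.

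Gm47827 (chr13:112669139-112685696, minus strand) lies inside Slc38a9, which encodes the lysosomal arginine sensor of mTORC1 signalling. It had 12.1, 26.3 and 14.3 CPM in CBM and 13.8, 15.2 and 18.3 CPM in EBM, with CBM library 2 far above the rest. Slc38a9 had 163, 334 and 192 CPM and 167, 191 and 229 CPM, the same order of libraries apart from neighbouring values. The log2 ratio stayed between -3.75 and -3.59, an SD of 0.06 against 0.4 for Gm47827. Per length Gm47827 was at 3.16 times Slc38a9, and 43.96% of its exonic bases lay under exons of the other strand.

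Gm15657 is head to head with the mucin gene Muc13, and the pair spanned a wide range: 17.3, 4.05 and 5.76 CPM in CBM and 18.2, 15.5 and 2.76 CPM in EBM for Gm15657, with an SD of 1.17 on the log2 scale and of 0.25 for the ratio. Muc13 had 245, 56.5 and 120 CPM and 235, 209 and 42.8 CPM, so the same 3 libraries were high. These libraries also went together over all genes tested. There the deviations of CBM library 1 from the group mean correlated with those of EBM libraries 1, 2 and 3 at r = 0.68, 0.31 and -0.67. Between CBM library 2 and EBM library 3 r was 0.51. The part of this split between libraries in the closeness of pairs was not tested. Gm35853, which contains the keratin gene Krt80, had an SD of 0.77, and its ratio one of 0.2. In all 3 pairs the spread within a group exceeded the difference between the regions, with log2 fold changes of -0.16, 0.44 and -0.13.

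The ratio of antisense to partner was compared between the regions by limma over all 2066 opposite-strand pairs, on log2 CPM with a prior count of 2. None of the 104 member pairs passed an adjusted p of 0.05, and no pair of the table did (percent called 0.0%), the smallest adjusted p being 0.052. At an unadjusted p under 0.05 there were 10 member pairs (9.62%), against 8.71% of all pairs (180). The antisense share was lower in EBM in 9 of the 10 (8.65% of the 104) and higher in 1 (0.962%). Of all 464 tested pairs of an antisense and a protein-coding gene, which include the member pairs, 6.68% were lower and 1.29% higher at that p. Without CBM library 2 there were 4 member pairs lower and 3 higher, against 18 and 8 of 490 such pairs.

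**Figure D5:**
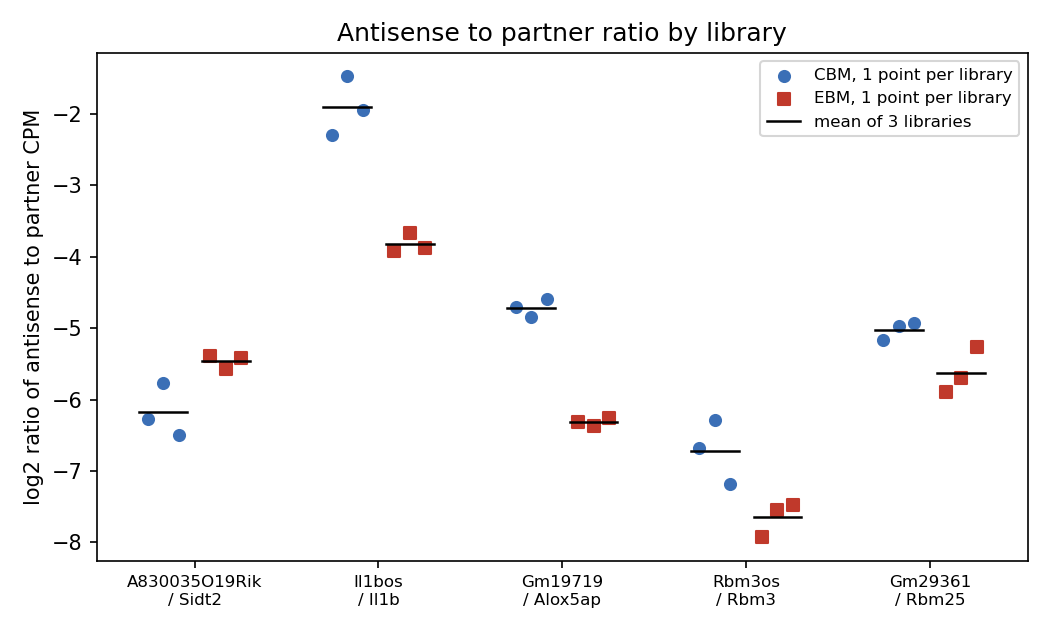
Log2 ratio of antisense to partner CPM (vertical axis) for the 5 pairs with the smallest p of the ratio (horizontal axis), 1 point per library and a line at the mean of the 3 libraries of a group. The CBM and EBM points do not overlap in any of the 5 pairs, and the ratio is lower in EBM in all but A830035O19Rik and Sidt2. The pairs were chosen by the p of this same ratio, so their separation is no separate result. Ratios without overlap also occurred at a large p, as for Gm47827 and Slc38a9 (limma unadjusted p = 0.536). The share without overlap was not counted over all pairs.

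The smallest p of the ratio were those of Il1bos and Gm19719. The log2 ratio of Il1bos to Il1b was -2.29, -1.47 and -1.95 in CBM and -3.92, -3.67 and -3.88 in EBM, a difference of -1.92 (SE 0.25, limma adjusted p = 0.052). The 3 EBM libraries were within a narrow band although Il1b itself ran from 63.8 to 208 CPM among them. Both genes had higher values in EBM, with log2 fold changes of 1.58 and 3.26, the larger being that of Il1b. For Gm19719 and Alox5ap it was -4.7, -4.85 and -4.59 in CBM and -6.31, -6.37 and -6.26 in EBM, a difference of -1.6 (SE 0.22, limma adjusted p = 0.052). Gm19719 did not overlap between the regions, while Alox5ap did. The adjusted p of both pairs lay near the threshold and crossed it under some settings: it ran from 0.0213 to 0.386 for Il1bos and from 0.0484 to 0.386 for Gm19719 over the alternatives.

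The other 3 pairs with the smallest p did not approach the adjusted threshold. The log2 ratio of Rbm3os to Rbm3 was -6.71 in CBM and -7.65 in EBM, a difference of -0.94 (SE 0.28, limma adjusted p = 0.399). That of A830035O19Rik to Sidt2 was -6.18 and -5.46, a difference of 0.72 (SE 0.25, limma adjusted p = 0.45). That of Gm29361 to Rbm25 was -5.02 and -5.62, a difference of -0.6 (SE 0.21, limma adjusted p = 0.451). By contrast the ratio of Rab10os to Rab10 differed by 0.00 (SE 0.13), and for Gm15247 and Mid1, where both had higher values in EBM, it differed by 0.17 (SE 0.27).

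Some partners are known in myeloid leukemia or hypoxia and are named for that, after their values were seen. Gm26626 lies inside Runx1, the gene of the transcription factor from which the AML1 part of AE9a derives. It had 9.9, 2.74 and 4.32 CPM in CBM and 3.7, 6.46 and 2.51 CPM in EBM, with overlap (log2 fold change -0.42, edgeR adjusted p = 0.944), and Runx1 differed by -0.04. Gm15283 contains Hif1a, the gene of the oxygen-regulated subunit of hypoxia-inducible factor 1, and differed by -0.07 with Hif1a at 0.17. Kdm6bos lies inside Kdm6b, which encodes a histone H3K27 demethylase, and had 2.58 ± 0.646 and 3.17 ± 0.977 CPM (SD, n = 3 each) with overlap. Kdm6b had 212 ± 31.9 and 405 ± 68.5 CPM (SD, n = 3 each) without overlap and its log2 fold change was 0.93, with adjusted p = 0.184 in edgeR and 0.000187 in DESeq2. The ratio of this pair differed by -0.66 (limma adjusted p = 0.637). Gm44851, head to head with the proprotein convertase gene Furin, had a log2 fold change of 0.95 against 0.76 for Furin, and both overlapped between the regions. Gt(ROSA)26Sor, named for itself and not for its partner Thumpd3, is the transcript of the locus used for mouse transgenes. It had 6.39 ± 0.875 and 7.53 ± 0.998 CPM (SD, n = 3 each) with overlap.

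By position, the median log2 fold change was -0.21 tail to tail (9 of 26 above 0), -0.1 inside the partner (17 of 47), -0.07 head to head (13 of 33) and 0.02 where the partner lay inside (4 of 8). Of the 12 genes at an unadjusted p under 0.05 in edgeR, 6 were among the 47 inside the partner, 5 among the 33 head to head and 1 among the 26 tail to tail. Of all genes tested, 7.91% were at that p. The difference between positions was not tested.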

How the data were processed

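RNA from AE9a leukemia cells was sequenced as 150-bp read pairs from directional libraries of rRNA-depleted RNA (3 CBM and 3 EBM libraries). The authors deposited raw counts per gene, without normalization, with gene coordinates, biotypes and lengths. The submitters' processing notes name HISAT2 2.0.5 and mm10. The counting tool, its strand setting and the annotation release are not given in the sources used here. No library was a duplicate of another of its group (chi-square per degree of freedom of 11.9 or more). Groups and replicate numbers came from the labels.

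Counts were tested with edgeR 4.0.16 (filterByExpr, TMM, quasi-likelihood F-test, Benjamini-Hochberg over 13352 genes, threshold 0.05), in R 4.3.3, without a block. TMM factors were 0.948 to 1.037. Single values were also tested by an exact two-sided permutation over the libraries. The log2 ratio of antisense to partner CPM (prior count 2) was tested with limma 3.58.1 over 2066 pairs. DESeq2 1.42.0, other scaling, filters, prior counts and minimum counts, and leaving out each library were alternatives. The code was tested on simulated data. Exon overlaps came from GENCODE M21, in which 117 of the 120 genes had the same coordinates.

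Named genes were the 10 with most counts, the 5 with the smallest p in each direction and the 5 pairs with the smallest p of the ratio. Antisense transcripts from the list of 33 and the 3 genes on each side of the minimum were named too. Others were named after their values were seen. The members and lists were chosen with earlier results of these data known. Same-numbered libraries are not said to come from the same mouse.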

Additional observations from a re-analysis of the deposited data

How the results depend on the processing

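Counts of genes and ratios were recomputed under other settings. The number of antisense genes at an adjusted p under 0.05 was 0 in edgeR under every scaling, filter and minimum count tried and without each library in turn (range 0 to 0), and 1 with DESeq2 (Gm19719). Over all genes edgeR called 40 of 24780 with no filter on low counts, and 0 under other scaling and without each library. At an unadjusted p under 0.05 the 12 of 120 genes became 17 of 251 with 150 or more summed counts and 4 of 42 with 600 or more. They became 3 of 25 with no exonic base shared with the other strand. The sets of 42 and 25 held fewer genes. Over all genes, 7.91% (1056) were at that p in the main fit. Without 1 library the 12 became 5 to 14, while the 1056 became 678 to 1136. With upper-quartile factors the split over all genes went from 535 higher and 521 lower to 428 and 676, and that of the antisense genes from 4 and 8 to 3 and 9. The count of member pairs past the adjusted threshold of the ratio was 2 with a prior count of 0.5 (Il1bos and Gm19719), 2 with at least 1 count in every library, and 0 to 1 without 1 library (Il1bos without CBM library 1). Over all pairs of the table these counts were 2, 3 and 0 to 1. At an unadjusted p under 0.05 it was 5 to 12 without 1 library against 10, while that over all pairs, 180, became 116 to 207. The cause was not tested.

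Same-numbered libraries of the groups correlated in their deviations from the group means with r of 0.68, -0.2 and 0.2 over all genes tested, so the replicate numbers were not taken as pairs. With the replicate block, 1 pair passed the threshold of the ratio (Il1bos, limma adjusted p = 0.0213) and no antisense gene passed that of edgeR.

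Of the log2 fold changes of named genes under alternatives, 231 kept direction and side of the threshold, 1 passed it (Gm19719 with DESeq2) and 10 changed sign, all in genes near 0 and all without 1 library: 1700042O10Rik (-0.14 to 0.19), 1600020E01Rik (-0.06 to 0.19), Kcnq1ot1 (-0.22 to 0.05), Gm26740 (-0.43 to 0.02), Gm47827 (-0.36 to 0.26), 4930579G18Rik (-0.08 to 0.17) and Gm42067 (-0.11 to 0.34).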
